A study of Homo sapiens with 18 samples.

Results

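The untreated transcriptomes of a cisplatin-sensitive and a cisplatin-resistant cancer cell line were compared. A2780 is an established human ovarian carcinoma line, described by the study as p53-proficient, and A2780cis, called Acis here, is its resistant derivative, raised by chronic exposure to increasing amounts of cisplatin. The comparison used the 3 RNA-seq libraries of Acis cells and the 3 of A2780 cells to which no cisplatin was added (6 of the 18 samples of the series), all labelled with a treatment time of 3 h. Acis cells were otherwise kept under selection with 1 µM cisplatin every 3 passages. Derivation under drug and this maintenance dosing therefore differ together between the groups, and their parts cannot be told apart. The other RNA-seq libraries, 3 of each line, received 200 µM cisplatin for 3 h and were used here only to set the spread and, at the end, to look at the line difference again. The 6 untreated libraries held 4130644 to 5072216 counted reads. The study's methods describe cells seeded in multi-well plates in triplicate for each condition. Neither they nor the labels say that the 3 libraries of a line came from independently grown cultures. The p-values therefore measure the spread between these libraries, which may be largely technical. In squared differences between pairs of libraries, the A2780 libraries differed by 0.73 to 0.82 times the counting noise and the Acis libraries by 0.95 to 1.46 times, so very small p-values were common. Within bulk RNA, fewer cells expressing a gene and less RNA of it per cell cannot be told apart.

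Cisplatin forms adducts and cross-links on DNA. Cells can survive them by taking up less drug or exporting more of it, by binding it to thiols such as glutathione and metallothionein, by removing or bypassing the lesions, or by failing to enter cell death, which p53 and the BCL2 family control. Lines kept under drug selection for long also drift in identity, and the genes of lineage, adhesion and signalling are known to vary between related lines. The gene groups below follow these roles.

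Values are read counts scaled to a common library size (normalized read counts), and differences are log2 fold changes of Acis over A2780 from edgeR's quasi-likelihood test. A gene was called where its Benjamini-Hochberg adjusted p-value was under 0.05 and its log2 fold change was at least 1 in size. Of 23622 genes with counts, 15760 were tested, and 19.1% of them were called, 6.99% (1101 genes) as higher and 12.2% (1917 genes) as lower in Acis cells. Over all tested genes the log2 fold change had a median of -0.01, and its size, sign aside, a median of 0.31. At the adjusted p-value alone, 58.9% of tested genes differed (4447 higher and 4829 lower), which is why the fold threshold decides most calls. The libraries of the lines did not overlap in 10116 tested genes (64.2%) and in 2986 of the 3018 called genes. Lower calls were more frequent among long non-coding RNAs, with 418 of 1878 tested (22.3%) lower and 145 higher, than among protein-coding genes, with 1387 of 12210 (11.4%) lower and 889 higher.

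Many of the differences were close to presence against absence. No read was counted in any of the 3 A2780 libraries for 46 of the genes called higher, and none in any Acis library for 288 of the genes called lower. Log2 fold changes of at least 5 in size were found for 151 higher and 534 lower genes. Genes with a mean of at least 100 normalized read counts in the higher line and at most 3 reads in total in the other numbered 29 among the higher and 115 among the lower calls.

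The 10 largest rises in Acis cells joined genes of lipid uptake, growth factor signalling, mineral transport and transcription. PDLIM1, an actin-binding adaptor of the PDZ and LIM domain family, had 0 reads in every A2780 library and 256, 236 and 242 normalized read counts in Acis cells, at least 248-fold higher when A2780 is set to a floor of 3 reads over its libraries. PRDM16, a zinc finger transcription factor of brown fat and haematopoietic stem cells, was also at 0 in A2780 and had 197, 159 and 183 in Acis cells (at least 182-fold). ANKH, a membrane protein that exports pyrophosphate and limits mineralization, went from 0 to 180.5, 162 and 176 (at least 175-fold). In all of these the A2780 libraries were silent and the Acis libraries lay close together. CD36, a scavenger receptor and fatty acid translocase, had 1 read over the A2780 libraries and 571, 638 and 667 normalized read counts in Acis cells, a count ratio of 1899 with a 95% counting interval of 340 to 75046. INHBA encodes the beta A subunit of activin. It had 3 reads over the A2780 libraries and 1067, 1142 and 1133 normalized read counts in Acis cells, a count ratio of 1129 (counting interval 386 to 5477). HMX1, a homeobox factor of sensory development, was at 0 in A2780 and at 143, 118 and 114 in Acis cells (at least 127-fold). The remaining rises, all from 0 reads in A2780, were the antisense transcript TLR8-AS1 (at least 114-fold), the GTPase-activating protein ARHGAP20 (at least 108-fold), the non-coding LINC03051 (at least 105-fold) and ECEL1, a neuronal membrane endopeptidase (98, 110 and 97, at least 103-fold).

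The 10 largest falls were all to 0 reads in every Acis library, and included transcription factors, a collagen chain and a non-coding RNA. DLX6-AS1, a non-coding RNA transcribed beside the DLX5 and DLX6 homeobox genes, had 2081, 2056 and 2068 normalized read counts in A2780 cells and had 0 reads in Acis cells, at least 1900-fold lower. The homeodomain zinc finger factor ZFHX4 had 1157, 1077 and 1190 in A2780 cells, and PAX2, a factor of kidney and Müllerian duct development, had 1067, 1045 and 1084. MEF2C, a factor of muscle, vascular and neural development, had 1035, 1040 and 1018. The spread between A2780 libraries was small against these levels, and no Acis library held a read. COL1A2, a chain of type I collagen, had 784, 815 and 762 in A2780 cells. EYA4, a transcriptional co-activator and phosphatase of embryonic development, had 800, 779 and 774. HDAC9, a class IIa histone deacetylase that binds MEF2 factors, had 727, 739 and 801. The last of the falls were OTOA, a protein of inner ear matrices (644, 664 and 621), NAALAD2, a membrane peptidase (616, 626 and 598), and MAB21L2, a factor of eye development (588, 589 and 641, at least 557-fold lower).

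**Figure D1:**
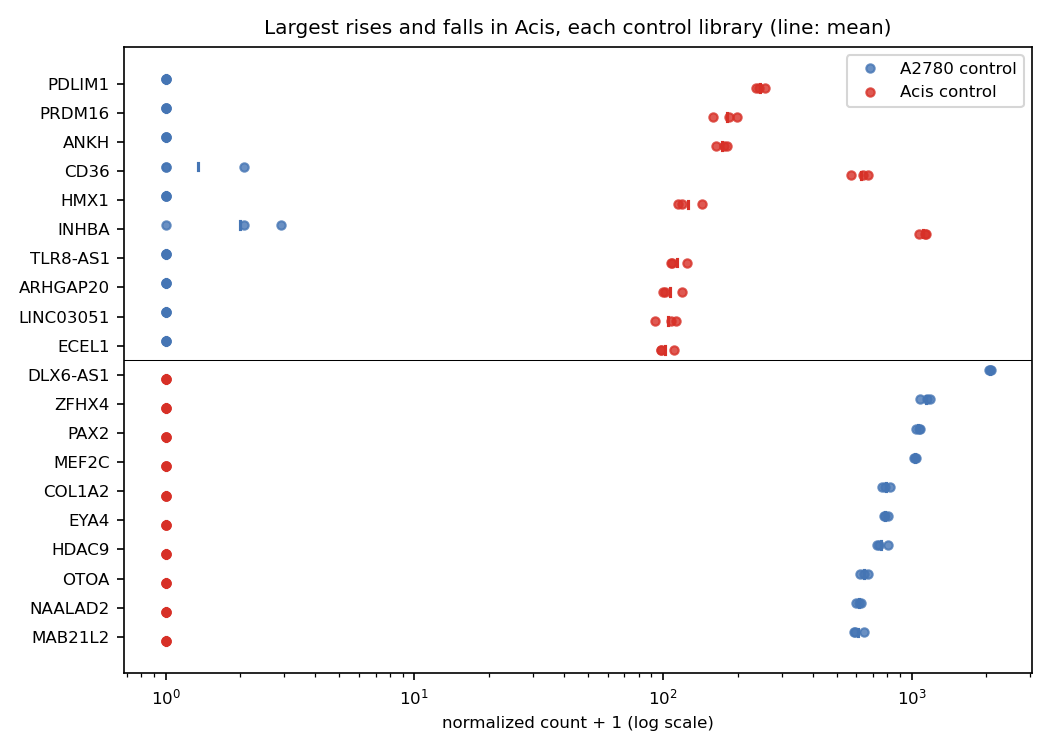
Normalized read count plus 1 (log scale) of the 10 largest rises (upper rows) and the 10 largest falls (lower rows) in each of the 3 A2780 control and 3 Acis control libraries, with the mean as a vertical line and 0 drawn at 1. Every fall goes to 0 in all Acis libraries, while CD36 and INHBA keep 1 and 3 reads in A2780 cells.

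Chromatin accessibility was measured by ATAC-seq, which marks open DNA by transposase insertion, as 1 peak list for each untreated line without replicates. Among these 20 genes, HMX1 and ECEL1 had a peak within 500 bases of their annotated start in the Acis list and none in the A2780 list, and ZFHX4, EYA4 and MAB21L2 had one in the A2780 list and none in the Acis list. INHBA and LINC03051 had a start peak in both lists, and the other genes in neither. The 300 bases around the summits of the Acis peaks of HMX1 and ECEL1 are shown because the peak and the RNA were found in the same line there. They were read from hg38 on the strand of the gene, which is the minus strand for both, with CG dinucleotides, the sites of DNA methylation, in capitals. The HMX1 window (chr4:8872024-8872323) lies in no annotated gene, with its summit 335 bases upstream of the start. The ECEL1 window (chr2:232488209-232488508) also lies in no annotated gene, with its summit 525 bases upstream.
HMX1: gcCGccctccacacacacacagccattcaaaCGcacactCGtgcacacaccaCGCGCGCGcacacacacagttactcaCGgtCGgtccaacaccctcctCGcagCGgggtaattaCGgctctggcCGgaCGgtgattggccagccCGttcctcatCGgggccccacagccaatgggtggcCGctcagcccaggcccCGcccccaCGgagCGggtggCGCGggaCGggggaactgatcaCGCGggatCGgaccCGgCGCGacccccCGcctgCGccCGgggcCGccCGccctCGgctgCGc
ECEL1: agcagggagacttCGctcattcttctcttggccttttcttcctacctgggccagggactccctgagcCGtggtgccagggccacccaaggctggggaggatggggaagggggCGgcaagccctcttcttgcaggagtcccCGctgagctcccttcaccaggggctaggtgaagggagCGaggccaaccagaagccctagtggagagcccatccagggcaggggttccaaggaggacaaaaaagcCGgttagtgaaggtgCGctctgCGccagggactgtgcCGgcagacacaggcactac
The HMX1 window held 36 CG dinucleotides and the ECEL1 window 9, and their peaks had fold enrichments of 19.6 and 5.81 over background. In windows of the same length around all summits, the median number of CG was 12 for the 24485 peaks of the Acis list, and 58.8% of them held at least 9. The A2780 peak at EYA4 (fold enrichment 12.3) had its summit inside the gene, and that of MAB21L2 (fold enrichment 3.58) lay 325 bases upstream of its start, within the gene LRBA.

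Over all tested genes, start peaks listed for only a single line were more frequent among the genes with more RNA in that line. A start peak in the Acis list only was found for 104 of 1095 genes called higher (9.50%), against 1.52% of all tested genes and 9 of 1910 genes called lower (0.471%). A start peak in the A2780 list only was found for 371 genes called lower (19.4%), against 7.75% of all tested genes and 70 genes called higher (6.39%). Called genes were less often open in both lists than genes that were not called, with 33.3% of the higher and 34.1% of the lower against 63.6%. No start peak in either list was found for 50.8% of the higher and 46.0% of the lower calls. The share was 32.8% of all tested genes and 29.3% of genes not called. Like the genes open in both lists, these calls had no listed difference at the start. The lists differ in length (34979 peaks in A2780 and 24485 in Acis), and with the 20000 strongest peaks of each the matching shares were 14.4% of higher calls, against 3.60% of all tested genes for the Acis list only, and 10.9% of lower calls, against 4.27% for the A2780 list only. With 1 list for each line, these shares have no test.

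**Figure D2:**
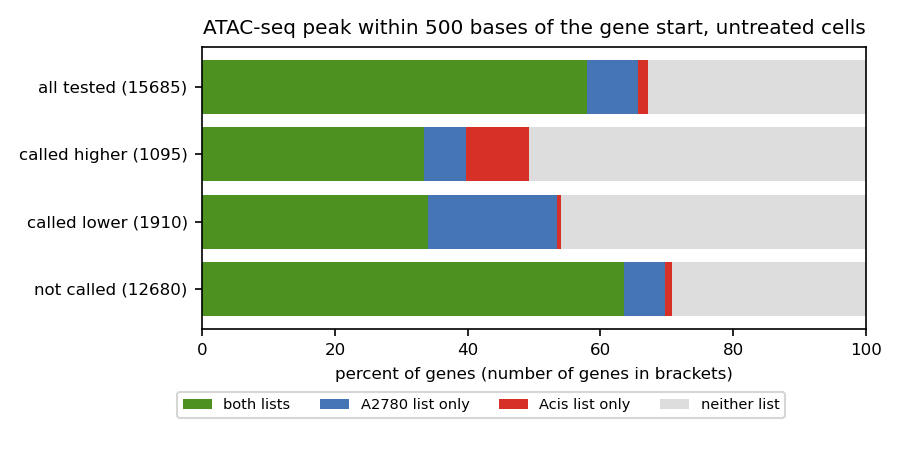
Percent of genes with an ATAC-seq peak within 500 bases of the gene start in both untreated peak lists, in the A2780 list only, in the Acis list only, or in neither, for all tested genes and by RNA call. The Acis-only share is 9.50% among genes called higher and 0.471% among genes called lower.

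Across 31 lists of genes by function and 30 families by symbol, high shares of the tested lineage, adhesion, ion channel and interferon genes were called. Some lists held no call. The main edgeR fit called no gene among 42 tested nucleotide excision repair genes, 34 Fanconi anemia and recombination genes or 16 translesion synthesis genes. It also called none among 17 checkpoint genes, 79 cytosolic ribosomal protein genes and 77 respiratory chain genes. At an unadjusted p-value under 0.05 with no fold threshold, 26, 24, 9, 10, 69 and 32 of these differed, and DESeq2 called 0, 0, 0, 0, 1 and 0. Removing duplicates from single-end reads caps the counts of short and abundant genes, among them many ribosomal protein and respiratory chain genes, and the part of this cap in their lack of calls was not tested. By contrast, 12 of 19 tested HOX genes, 24 of 43 interferon-stimulated genes, 15 of 19 calcium and sodium channel genes and 15 of 21 collagens were called. These are counts beside a background of 19.1%, with no test of the lists themselves. The low-count filter admits a gene with enough reads in the libraries of a single group. Mostly silent families were therefore tested largely through members high in some group, which can raise their called share. Of 48 glutamate and GABA receptor genes 19 were tested, and of 43 nucleotide excision repair genes 42. With a mean of at least 50 counts, 53 of 122 list counts changed by more than 1.5-fold.

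**Figure D3:**
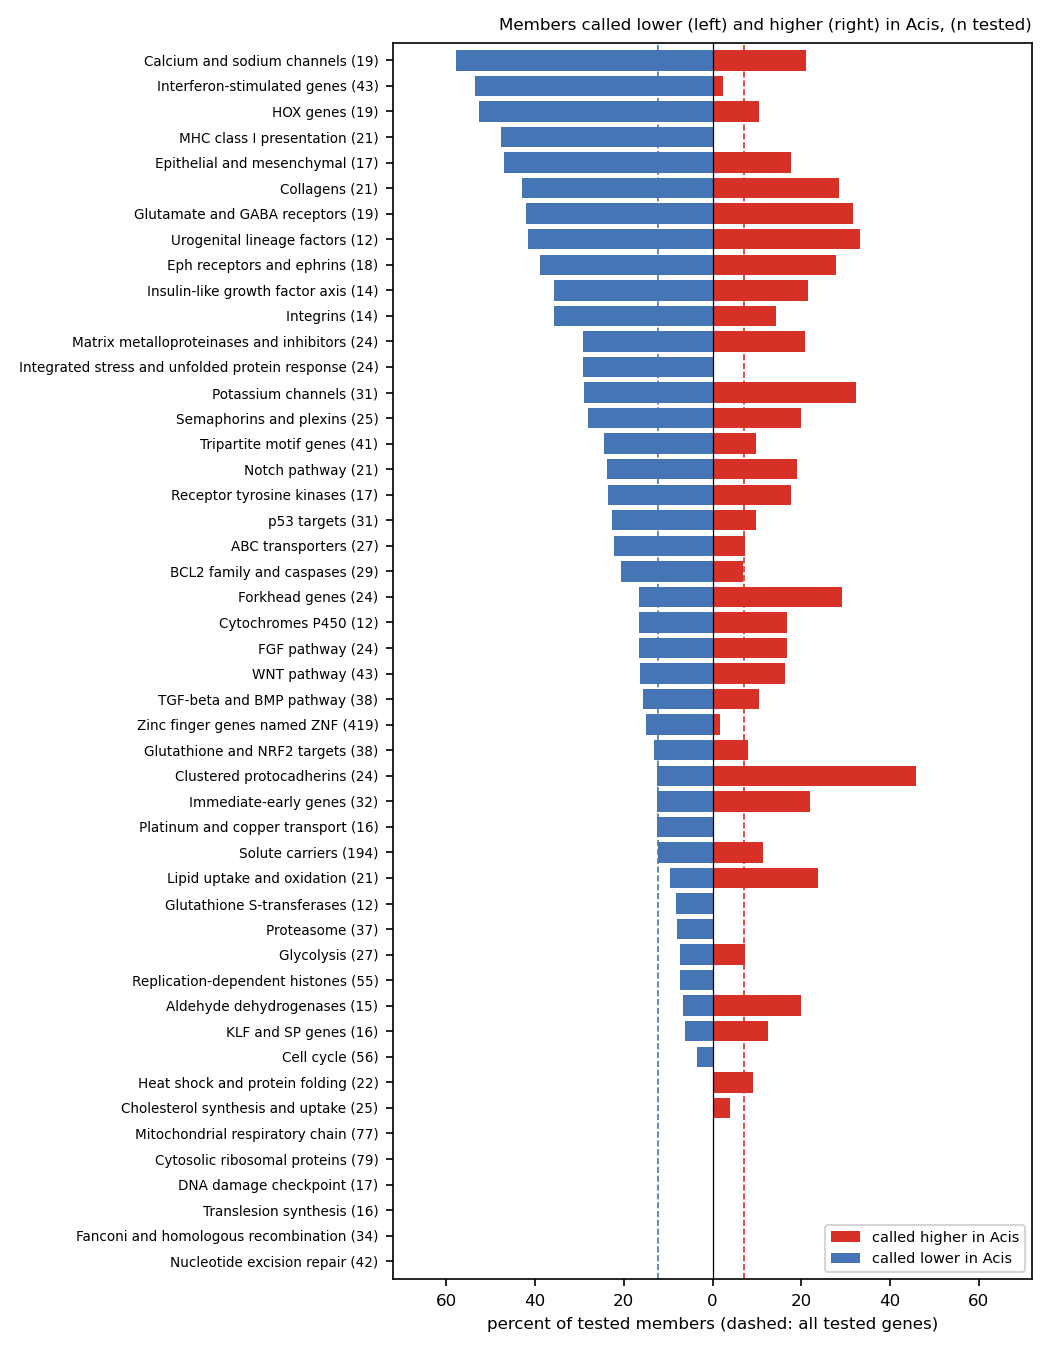
Percent of tested members called lower (left, blue) and higher (right, red) in Acis cells for each list or family with at least 12 tested members, and the percent called over all tested genes as dashed lines (12.2% lower, 6.99% higher). Repair, checkpoint, ribosomal and respiratory chain groups have no bar, and calcium and sodium channels, interferon-stimulated genes and HOX genes have the longest bars on the lower side.

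Of 16 tested genes that move platinum and copper across membranes, 0 were called higher and 2 lower. With no fold threshold 4 passed as higher and 7 as lower, and the median size of their log2 fold changes was 0.45, against 0.31 over all tested genes. ABCC6, an efflux pump of the multidrug resistance protein family, was at 85.8, 80.8 and 87.5 in A2780 cells and at 17.0, 14.9 and 7.98 in Acis cells (log2 fold change -2.65, SE 0.19). ABCC2, the family member best known for exporting conjugated platinum, had few reads and was lower by a small margin (41 reads in A2780 and 18 in Acis, log2 fold change -1.03, adjusted p-value 0.036). ABCC2 was not called without A2780 library 2 (log2 fold change of ABCC2 -0.75) or without Acis library 1 (-0.71), nor by DESeq2. The copper transporter SLC31A1, an uptake route of cisplatin, stood at 637, 639 and 630 in A2780 cells and at 427, 459 and 431 in Acis cells. Its log2 fold change of -0.53 passed the adjusted p-value (2.0e-10) but not the fold threshold. The copper pumps ATP7A and ATP7B had log2 fold changes of -0.52 and -0.57, also under the threshold.

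Among 38 glutathione and NRF2 target genes 3 were higher and 5 lower. This is 21.1% called, near the 19.1% of all tested genes. OSGIN1, an oxidative stress response gene, was higher in every Acis library (144, 130 and 150 against 12.1, 14.4 and 12.8 in A2780 cells, 10.7-fold), and so, at low counts, were the aldo-keto reductases AKR1C2 and AKR1C3 (44 and 42 reads in Acis against 6 and 15 in A2780). SLC7A11, the cystine importer that feeds glutathione synthesis, was lower, at 563, 556 and 559 in A2780 and 200, 201 and 207 in Acis cells (log2 fold change -1.46, SE 0.06). CHAC1, which degrades glutathione, was lower as well (log2 fold change -1.71). ME1, a cytosolic producer of NADPH, had 138, 142 and 155 in A2780 cells and 0 in every Acis library (at least 133-fold lower), and the peroxidases GPX8 and GPX3 were also lower. NQO1, HMOX1 and GCLM, classical NRF2 targets, had log2 fold changes of -0.85, -0.94 and -0.89 and were not called. NFE2L2, which encodes NRF2, and its repressor KEAP1 had log2 fold changes of 0.08 and 0.01. The median of the list was 0.07.

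Of 12 glutathione S-transferases only GSTM2 was called, as lower (108 reads in A2780 and 27 in Acis cells). GSTP1, the most studied of them in platinum resistance, had 466 ± 13.2 normalized read counts in A2780 and 493 ± 17.3 in Acis cells (mean ± SD, n = 3), and the libraries overlapped. Few metallothionein reads were counted. MT2A stood at 21.5, 17.3 and 16 in A2780 and 29.7, 33.0 and 31.9 in Acis cells, under the fold threshold (log2 fold change 0.78). Of 15 aldehyde dehydrogenases 3 were higher and 1 lower. The retinaldehyde dehydrogenases went in opposite directions, with ALDH1A3 at 134, 122 and 147 in Acis against 1.87, 0.962 and 3.20 in A2780 cells (64.1-fold higher), and ALDH1A2 at 4 reads in Acis against 94 in A2780 (19.7-fold lower). CYP26B1, which degrades retinoic acid, was 14.8-fold higher in Acis cells, and CYP1B1, an enzyme of oestrogen and xenobiotic oxidation, was at 1652, 1735 and 1680 in A2780 and at 97.7, 92.7 and 101 in Acis cells (17.4-fold lower).

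No tested nucleotide excision repair gene passed the fold threshold, although 11 of 42 were higher and 13 lower at the adjusted p-value alone. Their log2 fold changes ran from -0.87 (POLD4, called without A2780 library 1 or Acis library 1, at -1.11 and -1.31) to 0.63 (ERCC2, a helicase of TFIIH), with a median of -0.03. XPA, the lesion verification factor, had 103 ± 4.83 in A2780 and 93.3 ± 3.14 in Acis cells (log2 fold change -0.15, adjusted p-value 0.28). ERCC1, part of the nuclease that cuts 5′ of the lesion, had a log2 fold change of 0.20, and the damage sensor XPC one of -0.36. ERCC6, which starts repair at stalled RNA polymerase, had one of -0.77 (222 ± 10.2 against 130 ± 14.6).

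The Fanconi anemia and homologous recombination genes ran from -0.99 (MRE11) to 0.90 (RAD51B), again with 0 of 34 called. Without Acis library 2 the log2 fold change of MRE11 was -1.07 and passed. MRE11 was called in 7 alternative settings in all. Among them were other libraries left out, no low-count filter, a mean of at least 50 counts and the closest replicates merged. BRCA2, a core gene of homologous recombination, was at 877, 843 and 826 in A2780 cells and 397, 491 and 479 in Acis cells (log2 fold change -0.90, SE 0.06, adjusted p-value 7.2e-13), below the fold threshold with groups that did not overlap. BRCA1 had a log2 fold change of -0.15. Of the translesion polymerases, REV3L, the catalytic subunit of polymerase zeta, had the highest value (0.46), and POLH stood at -0.06. ATM, ATR, CHEK1 and CHEK2, the kinases of the checkpoint, were between -0.08 and 0.14 with libraries that overlapped. The 17 checkpoint genes ran from -0.67 to 0.99, the highest being the phosphatase CDC25B (511, 543 and 513 against 1082, 1003 and 1020 in Acis cells), which was called higher without A2780 library 2 and with the closest replicates merged. In mismatch repair, whose loss is known to make cells tolerate platinum adducts, MLH3 was called higher (174, 174 and 179 against 396, 377 and 414, log2 fold change 1.17), while MSH6 stood at -0.56.

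**Figure D4:**
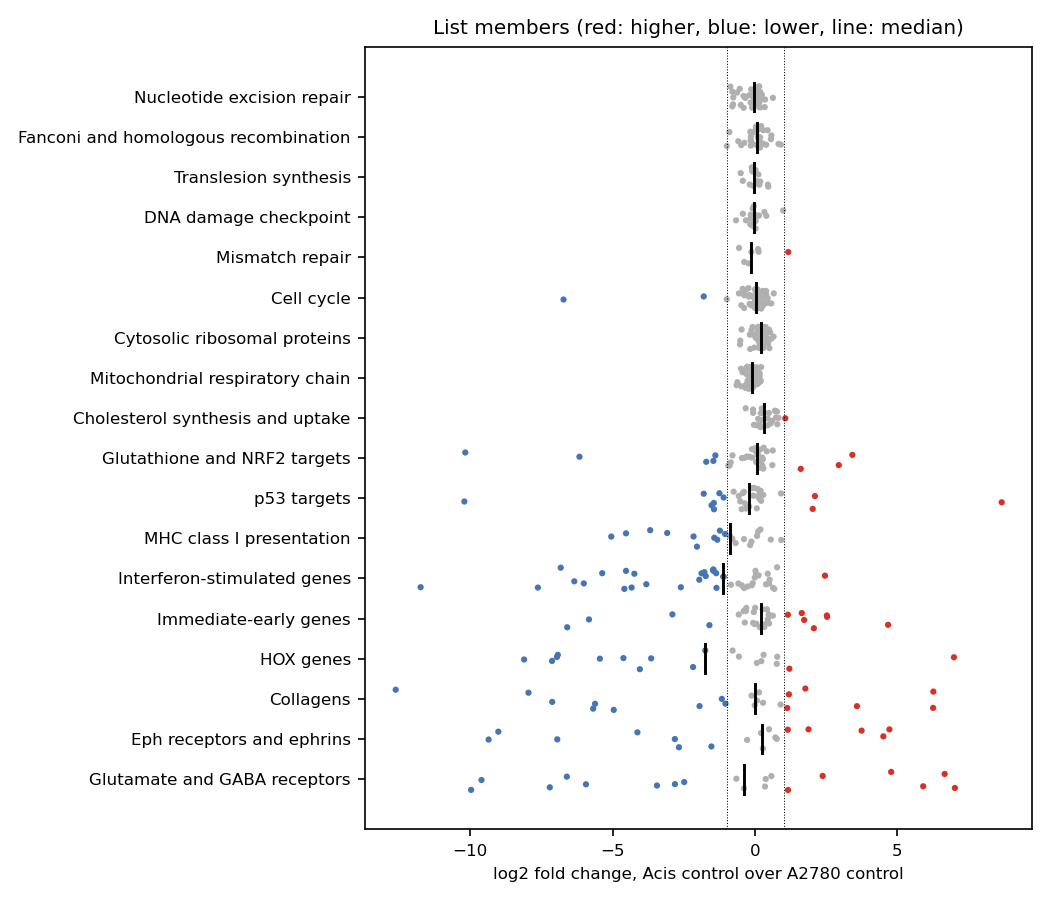
Log2 fold change of each tested member of 18 lists or families (points), with genes called higher in red, called lower in blue and not called in grey, the list median as a vertical line and the fold threshold as dotted lines. Excision repair, recombination, translesion, checkpoint, ribosomal and respiratory chain genes lie between the dotted lines. MLH3 of mismatch repair lies to the right of them, and interferon-stimulated and MHC class I genes extend to the left.

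Of 31 tested genes of the p53 network, 3 were higher and 7 lower (32.3% called). The inhibitor MDM2, also a target, had 1131 ± 23.8 and 1085 ± 52.8 with libraries that overlapped. CDKN1A, which encodes the cell cycle inhibitor p21, was at 537, 524 and 533 in A2780 and at 153, 154 and 149 in Acis cells (log2 fold change -1.80, SE 0.07). The stress-induced sestrins SESN2 and SESN1 (-1.45 and -1.25), GADD45A (-1.53), the mitophagy gene SPATA18 (-1.44) and the pro-apoptotic BBC3 (-1.10) were also lower. TP53INP1, which promotes p53 phosphorylation and autophagy, had 146, 142 and 156 in A2780 cells and 0 in every Acis library. Against this direction, PERP, a p53-induced membrane protein of desmosomes, had 2 reads in A2780 and 268, 340 and 344 normalized read counts in Acis cells (count ratio 481, counting interval 133 to 3981). The kinase PLK2 (4.07-fold) and TP73, a transcription factor (4.29-fold), were higher too.

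The BCL2 family and caspases had 2 higher and 6 lower of 29. CASP1 and CASP4, the inflammatory caspases, had reads almost only in A2780 cells. CASP1 had 165, 178 and 177 there and 0 in every Acis library, and CASP4 had 252 reads in A2780 and 1 in Acis. BCL2, which protects against apoptosis, was lower (222, 205 and 197 against 83.9, 93.7 and 92.3), and so were the BH3-only death genes BMF (-2.11), BBC3 and HRK, the last at the threshold (-1.0, and -0.85 without Acis library 1). CASP10, a caspase of death receptor signalling (98 reads against 15), and the BH3-only gene PMAIP1 (66.9, 54.3 and 63.8 against 14.9, 11.5 and 23.5) were higher in Acis cells. The guardians MCL1 and BCL2L1 had log2 fold changes of -0.10 and 0.05, and BAX one of -0.43.

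Of 56 cell cycle genes only CDKN1A and CDK6 were called. CDK6, a G1 kinase, was low in A2780 (40 reads) and at 0 in Acis cells. RB1 stood just under the fold threshold (415, 415 and 462 against 172, 245 and 231, log2 fold change -0.99). It was called at -1.11 without Acis library 2, and in 8 alternative settings in all, among them the 6 control libraries alone. CCND1, CCNE1 and MYC had log2 fold changes of 0.09, -0.48 and 0.42, and the proliferation marker MKI67 had 3803 ± 127 in A2780 and 4852 ± 129 in Acis cells (0.35). The cytosolic ribosomal protein genes were between -0.53 and 0.65 (median 0.22), with 60 of 79 higher at the adjusted p-value alone. The respiratory chain genes were between -0.65 and 0.21 (median -0.11), with 24 of 77 lower at the adjusted p-value alone. Of all 15760 tested genes 4447 were higher and 4829 lower on this measure, so the respiratory chain count is near the share over all genes. The cap on counts from duplicate removal can narrow the range of both families, which was not tested.

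Interferon-stimulated genes were the functional list with the most lower calls. Type I interferon signals through factors such as STAT2 and IRF9 to a set of antiviral genes, part of which is also expressed without virus. In Acis cells 23 of 43 tested members were lower and 1 higher, with a list median of -1.12. BST2, which tethers budding virus to the membrane, had 413, 435 and 442 in A2780 cells and 0 in every Acis library (at least 395-fold lower). GBP1, a guanylate-binding protein, had 451, 460 and 491 against 4.25, 5.32 and 2.28. OAS2 was at 97.0, 98.1 and 101 against 0, 0 and 3.42, and IFI27 at 101, 102 and 102 against 3.18, 1.06 and 0. In these genes the A2780 libraries were all well above the Acis libraries. The signalling genes were lower by less. STAT2 had a log2 fold change of -1.36, IRF9 one of -1.96 and IRF1 one of -1.48. Sensors of viral RNA were lower as well, with TLR3 at -3.82, RIGI at -1.78 and IFIH1 at -1.45. The member called higher was HERC5, the ligase that attaches ISG15 (140, 138 and 133 in Acis against 23.3, 26.9 and 24.5). ISG15 itself had a log2 fold change of -0.59 and IFI6 one of 0.77, both under the threshold.

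The MHC class I presentation genes, which carry peptides to the cell surface, had 10 lower and 0 higher of 21 (median -0.88). NLRC5, the activator of class I genes, was at 709, 716 and 672 in A2780 and at 52.0, 52.2 and 59.3 in Acis cells (12.8-fold lower). The peptide transporter TAP1 was at 758, 739 and 740 against 90.2, 99.0 and 72.9 (8.49-fold lower), and the heavy chain HLA-B at 663, 677 and 735 against 163, 143 and 157 (4.47-fold lower). The 3 proteasome genes called lower of 37 were the inducible immunoproteasome subunits PSMB8, PSMB9 and PSMB10, and PSMB9 had 525 reads in A2780 against 14 in Acis cells. ERAP1 and ERAP2, the peptide-trimming proteases, were at -1.33 and -2.04. B2M, HLA-C and TAP2 had log2 fold changes of -0.80, -0.68 and -0.88, past the adjusted p-value but under the fold threshold. Reads shared between HLA genes can be split or lost in counting, so the values of single HLA genes are uncertain.

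The defining markers of ovarian carcinoma epithelium were mostly absent or near 0 in both lines. Of 12 ovarian carcinoma markers 8 were not in the table analysed here (PAX8, WT1, MUC16, MSLN, KRT7, KRT19, CDH1 and ESR1), and the other 4 summed to 36.5 to 53.2 normalized read counts in A2780 and 135 to 158 in Acis libraries. EPCAM had 11 reads over the A2780 libraries and 2 over those of Acis. Markers of leukocytes (4.27 or less in sum) were near 0, and none of 5 endothelial markers was in the table. All 7 fibroblast markers were tested, and their sum was 3943 to 4147 in A2780 and 4409 to 4541 in Acis libraries. COL3A1 was higher in Acis cells, THY1 was not called, and the other 5 were lower.

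Among 17 tested epithelial and mesenchymal genes 3 were higher and 8 lower, and paralogs went in opposite directions. TWIST1 was at 595, 589 and 587 in A2780 and at 0, 4.26 and 1.14 in Acis cells. Its paralog TWIST2 was at 0 in A2780 and at 86.0, 111 and 105 in Acis cells (at least 102-fold higher). In the same way SNAI2 was lower (465, 475 and 476 against 116, 120 and 109) and SNAI1 higher (12.1, 7.69 and 13.9 against 83.9, 60.7 and 75.2). The homeobox factor PRRX1 had 236, 235 and 262 in A2780 cells and 0 in every Acis library, and N-cadherin (CDH2) was 9.19-fold lower. VIM, the mesenchymal intermediate filament, was at 2007 ± 86.3 and 1979 ± 17.4 and overlapped, and ZEB1 had a log2 fold change of -0.21. KRT18 was 5.63-fold higher and its partner KRT8 3.86-fold lower at low counts.

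Urogenital lineage factors had 4 higher and 5 lower of 12. Besides PAX2, FOXL2, a factor of ovarian granulosa cells, was lower and went from 136, 133 and 130 to 0. The kidney growth factor GDNF was at 0 in Acis cells, while its receptor RET was 3.15-fold higher. BMP7 (562, 554 and 501 against 112, 100 and 95.0), GATA2 (1137, 1115 and 1046 against 428, 408 and 432) and NR2F2 (2.99-fold) were higher.

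HOX genes, which set position along the body axis, were called in 12 of 19 cases, 10 of them lower. The lower members were HOXB4 to HOXB9 and HOXD3, HOXD4, HOXD8 and HOXD9. HOXB9 was at 275, 260 and 239 in A2780 cells and at 9.55, 1.06 and 6.84 in Acis cells, and HOXD9 went from 36.4, 34.6 and 32.0 to 0. HOXB13, at the far end of the HOXB cluster, moved the other way, from 1 read in A2780 to 55.2, 58.6 and 58.1 normalized read counts in Acis cells (count ratio 174, counting interval 30.8 to 6925). HOXC4 was 2.31-fold higher.

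Members of the same family with opposite directions were also found in other groups of transcription factors. DLX5 (485, 500 and 512) and DLX6 (479, 524 and 504) were at 0 in Acis cells, like the neighbouring DLX6-AS1, whereas DLX3 was at 75.4, 91.6 and 80.9 in Acis against 0.933, 1.92 and 1.07 in A2780 cells. SOX9, a factor of cartilage and gonad development, went from 247, 278 and 304 to 0, and SOX8, its relative, from 8.40, 1.92 and 5.34 to 566, 511 and 515 (98.9-fold). Among forkhead genes 7 of 24 were higher and 4 lower, with the pioneer factors FOXA1 (30.7-fold) and FOXA3 (15.6-fold) and the insulin-regulated FOXO1 (33.0-fold) higher. The T-box factors TBR1 and EOMES, close relatives known from cortical neurons, were among the clearest rises by test. TBR1 was at 1.87, 3.85 and 2.13 in A2780 and 1145, 1134 and 1164 in Acis cells (417-fold, adjusted p-value 4.6e-29), and EOMES at 41.0, 31.7 and 43.8 against 870, 839 and 829. TBX18 went from 41.0, 39.4 and 36.3 to 0.

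The insulin-like growth factor axis had 3 higher and 5 lower of 14. LIN28A, an RNA-binding protein of stem cells that blocks maturation of let-7 microRNAs, had 1036, 1035 and 1014 normalized read counts in A2780 cells and 1 read over the Acis libraries (count ratio 2844, counting interval 510 to 112360 as A2780 over Acis). Its paralog LIN28B (2.18-fold), the binding protein IGF2BP1 (2.39-fold), the receptor IGF1R (4.45-fold) and the adaptor IRS1 (2.05-fold) were lower by less. TRIM71, a let-7 target of early embryos, was 5.23-fold lower as well. IGFBP7 went from 0 reads to 43.5, 36.2 and 37.6, and IGFBP4 was 3.96-fold higher.

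Collagens differed by type, with 6 of 21 higher and 9 lower. COL12A1, a collagen associated with type I fibrils, was at 69.0, 76.0 and 59.8 in A2780 and 5232, 5242 and 5254 in Acis cells (log2 fold change 6.25, SE 0.05). In Acis library 3 its count equalled the highest of any gene (4610 reads). Duplicate removal can cap such counts and narrow their spread, and its part in the level, fold change and SE of COL12A1 was not tested. COL11A1, a fibril-forming chain, was at 305, 342 and 329 against 3921, 3944 and 3787. COL6A3 went the other way, from 2665, 2659 and 2605 to 9.55, 12.8 and 9.12, and COL1A1 from 902, 841 and 788 to 8.49, 22.4 and 18.2. The libraries of a line lay close together against these differences. On a scale of reads per kilobase of exon and library depth (RPKM), COL12A1 had a level of 0.763 in A2780 and 58.9 in Acis cells, and COL6A3 had levels of 25.9 and 0.103. The partner chains COL6A1 and COL6A2 had log2 fold changes of 0.07 and -0.01 and overlapped, and COL5A2, with a level of 85.0 and 94.2 on the same scale, had one of 0.14.

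Other matrix genes also went in both directions. LAMA1, a laminin chain of embryonic basement membrane, had 886, 831 and 780 in A2780 cells and 4 reads over the Acis libraries, and LAMC3 was at 824, 756 and 691 in Acis against 59.7, 52.9 and 61.9 in A2780 cells. TIMP3, an inhibitor of matrix metalloproteinases, was at 1042, 1084 and 1084 in A2780 and at 4.25, 4.26 and 3.42 in Acis cells (260-fold lower). The collagenase MMP1 was at 52.2, 64.4 and 58.7 against 1053, 1067 and 1025 (17.9-fold higher), and MMP12 (25.4-fold), MMP16 (7.70-fold) and MMP3 (3.25-fold) were higher as well. Matrix metalloproteinases, ADAMTS genes and their inhibitors had 5 higher and 7 lower of 24.

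The integrins, receptors for matrix, had 2 higher and 5 lower of 14. Both of the higher ones form the laminin receptor of hemidesmosomes, ITGA6 (986, 1050 and 1037 against 188, 200 and 193) and, at low counts, ITGB4. The collagen receptor ITGA1 had 1517 reads in A2780 and 3 in Acis cells, ITGA8 went from 141, 115 and 133 to 0, and the fibronectin receptor ITGA5 was 2.68-fold lower. By share of tested members, cell-cell adhesion genes were among the families called most often. Of 9 tested cadherins with CDH symbols 2 were higher and 5 lower, with CDH10 at 356, 352 and 374 in A2780 and 3.18, 7.45 and 4.56 in Acis cells. Of 9 protocadherins outside the clusters 3 were higher and 5 lower, with PCDH10 at 2295, 2272 and 2227 in Acis against 438, 463 and 484 in A2780 cells and PCDH9 at 36.1, 31.9 and 35.3 against 911, 963 and 956. The clustered protocadherins had 11 higher and 3 lower of 24 (median 0.97). Of the higher ones PCDHGA10 was the clearest by test (3.49-fold), and their similar exons make the value of a member uncertain.

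Guidance receptors and their ligands were called in 12 of 18 Eph and ephrin genes and 12 of 25 semaphorins and plexins. EPHA3 (999, 1005 and 1005 in A2780) and EPHA7 (1036, 1010 and 1055) kept only 5 and 4 reads over the Acis libraries, while EPHA6 was at 386, 380 and 357 in Acis against 14.0, 15.4 and 12.8 in A2780 cells. SEMA6A had 3249 reads in A2780 and 8 in Acis cells, SEMA6D went from 189, 171 and 196 to 0, and the secreted SEMA3C was 13.3-fold higher. Within both groups the calls went in both directions.

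The growth factor pathways had calls in both directions, many of them at ligands, receptors and secreted inhibitors. In the WNT pathway, where ligands bind Frizzled receptors to stabilise beta-catenin, 7 of 43 genes were higher and 7 lower. The secreted inhibitors DKK2 (447, 476 and 418 against 106, 91.4 and 87.5), WIF1 (2.97-fold) and NOTUM (19.1-fold) were higher. The R-spondin receptors LGR4 (940, 1001 and 1014 against 115, 102 and 122) and LGR5 (17.0-fold) and the receptors FZD2 (3.68-fold) and FZD3 (3.59-fold) were lower. The receptor FZD8 was called higher. Of 20 tested genes listed as ligands and receptors, LGR4 and LGR5 not among them, 4 were higher and 4 lower (median 0.27). CTNNB1, which encodes beta-catenin, had a log2 fold change of -0.18, and the target AXIN2 had one of 0.52, under the threshold.

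In the TGF-beta and BMP pathway, 4 of 38 were higher and 6 lower (26.3% called, against 19.1% of all tested genes). Besides INHBA, the activin and BMP ligands BMP7 (5.25-fold) and BMP2 (24 reads against 2) and the activin-binding FSTL3 (2.79-fold) were higher. The activin receptor ACVR2B was at 679, 703 and 731 in A2780 and 175, 159 and 166 in Acis cells, and TGFB2 had 83 reads against 2. The signal transducer SMAD9 (4.73-fold) and the stress-induced ligand GDF15 (2.72-fold) were lower. TGFB1 and SMAD4 had log2 fold changes of 0.36 and -0.18.

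Among 24 FGF pathway genes 4 were higher and 4 lower, with 6 ligands, 1 receptor and 1 feedback gene, SPRED3, among them. SPRED3 was 2.08-fold lower and was not called without A2780 library 3 (log2 fold change of SPRED3 -0.93) or Acis library 3 (-1.0). FGF10 was at 633, 699 and 677 in Acis against 64.4, 78.9 and 91.8 in A2780 cells, and FGF1 at 133, 114 and 145 against 0.933, 3.85 and 3.20. FGFR2, whose epithelial form binds FGF10, went from 1 read to 65.8, 54.3 and 65.0 (count ratio 187, counting interval 33.2 to 7448). FGF5 (228, 232 and 254 in A2780) and FGF18 (160, 166 and 177) were lower by 151-fold and 28.3-fold. The Notch pathway had 4 higher and 5 lower of 21. The ligands JAG1 and JAG2 went in opposite directions, with JAG1 at 319, 338 and 323 against 22.3, 22.4 and 23.9 (14.2-fold lower) and JAG2 2.24-fold higher. The co-activator MAML3 had 853 reads in A2780 and 2 in Acis cells, and the targets HEY1 (11.3-fold) and HES1 (2.34-fold) were lower.

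Of 17 receptor tyrosine kinases tested, 3 were higher and 4 lower. PDGFRA, the receptor for platelet-derived growth factor on mesenchymal cells, was at 1029, 1034 and 984 in A2780 and 20.2, 21.3 and 13.7 in Acis cells (54.6-fold lower, adjusted p-value 1.1e-27), and PDGFRB was 21.4-fold lower. Among the EGF receptor family ERBB4 was 7.84-fold lower and ERBB3 2.73-fold higher, and EGFR and ERBB2 had log2 fold changes of 0.37 and 0.28. MET, the hepatocyte growth factor receptor, was higher at low counts (62 reads against 24).

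Among members that passed the low-count filter, ion channels and neurotransmitter receptors were called at several times the background, in both directions. Of 19 calcium and sodium channel genes 4 were higher and 11 lower. SCN9A, a voltage-gated sodium channel of sensory neurons, was at 2482, 2378 and 2581 in A2780 and 15.9, 7.45 and 16 in Acis cells (188-fold lower). The T-type calcium channel CACNA1H was at 8.40, 8.65 and 11.7 against 1298, 1101 and 1070 (120-fold higher), while its relative CACNA1G was 4.99-fold lower. Glutamate and GABA receptors had 6 higher and 8 lower of 19. The NMDA receptor subunit GRIN2B was at 443, 421 and 458 in Acis against 5.60, 11.5 and 4.27 in A2780 cells, and the AMPA receptor subunit GRIA4 had 2021 reads in A2780 and 2 in Acis cells. Potassium channels had 10 higher and 9 lower of 31, with KCNH3 17.5-fold higher and KCNMA1 at 593 reads in A2780 and 2 in Acis cells.

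Solute carriers, with 22 higher and 24 lower of 194, were called in 23.7% of cases, near the background. SLC4A4, a sodium bicarbonate cotransporter that regulates pH, was at 4.66, 7.69 and 3.20 in A2780 and 1228, 1273 and 1258 in Acis cells (233-fold higher), and the potassium-dependent sodium calcium exchanger SLC24A4 was 37.0-fold higher. The choline transporter SLC44A1 was at 967, 968 and 971 in A2780 and 63.7, 58.6 and 58.1 in Acis cells, and the arginine transporter SLC7A2 was 3.64-fold lower. SLC16A3, a lactate exporter, had 330 reads against 2. Of 27 ABC transporters 2 were higher and 6 lower, with the cholesterol exporter ABCA1 at 327, 338 and 329 in A2780 and 8.49, 6.39 and 13.7 in Acis cells.

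Lipid uptake and oxidation genes had 5 higher and 2 lower of 21. Besides CD36, the nuclear receptor PPARG went from 1 read to 64.8, 70.3 and 75.2 (count ratio 213, counting interval 37.7 to 8449), the acyl-CoA synthetase and transporter SLC27A2 was 5.87-fold and the carrier FABP5 7.03-fold higher. CPT1A, which admits fatty acids to mitochondria, was at 791, 789 and 757 in Acis against 188, 167 and 186 in A2780 cells, and its muscle paralog CPT1B was lower (26 reads in A2780 and 5 in Acis). FABP3 was at 0 in Acis cells. Of 25 genes of cholesterol synthesis and uptake only STARD4, a sterol carrier, was called (368, 386 and 377 against 757, 825 and 777), although 18 were higher at the adjusted p-value alone and the median was 0.31. SQLE, an enzyme of sterol synthesis, had a log2 fold change of 0.70. Of 27 glycolysis genes PFKP and ALDOC were higher and ENO3 and ENO2 lower, the latter at 199 reads in A2780 and 7 in Acis cells.

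In the integrated stress response, which ATF4 drives under amino acid shortage, 7 of 24 genes were lower and 0 higher. PHGDH, the first enzyme of serine synthesis, was at 1187 in each A2780 library and 422, 373 and 385 in Acis cells. ASNS (3.29-fold), DDIT4 (2.83-fold) and ATF3 (7.48-fold) were lower, with SESN2, CHAC1 and SLC7A11 already given. ATF4 had a log2 fold change of -0.16, DDIT3 one of 0.05 and the chaperone HSPA5 one of 0.23. Of 22 heat shock genes HSPA12A (246 reads against 3) and HSF2 (2.12-fold) were higher, and 16 were higher at the adjusted p-value alone.

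Immediate-early genes, which growth factors and stress induce within minutes, had 7 higher and 4 lower of 32 without added cisplatin. The time since the last maintenance dose of Acis cells is not given in the sources used here, so a recent dose and a lasting difference cannot be told apart. EGR2 was at 402, 383 and 403 in Acis against 11.2, 18.3 and 17.1 in A2780 cells, EGR1 at 1197, 1129 and 1135 against 336, 358 and 354, and ARC, a synaptic regulator, at 329, 285 and 278 against 47.6, 50 and 57.6. JUN (5.75-fold) and EGR3 (4.19-fold) were higher, while FOS overlapped (73.7 ± 1.92 and 74.1 ± 6.43). The matricellular genes CCN1 (510, 543 and 517 against 7.43, 13.8 and 5.70) and CCN2 (248, 272 and 253 against 2.12, 2.13 and 3.42), targets of YAP and TAZ, were lower by 57.0-fold and 96.9-fold. The 7 genes that the study assayed by real-time PCR were all higher in untreated Acis cells. They included TBR1, EGR2, OSGIN1, ARC, SNAI1, MYLIP (27.8-fold), a ubiquitin ligase of lipoprotein receptors, and the small GTPase RHOV (3.89-fold). The study chose them on these samples, so their shared direction is not independent evidence.

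Zinc finger genes named ZNF, many of which repress transposable elements through a KRAB domain, had 7 higher and 63 lower of 419 (median -0.16). This is 16.7% called, near the 19.1% of all tested genes, but the calls leaned to lower. Over all tested genes 6.99% were called higher and 12.2% lower. At the adjusted p-value alone 72 of the family were higher and 189 lower, against 4447 and 4829 of all tested genes. ZNF516 was at 992, 976 and 938 in A2780 and 61.6, 50.1 and 38.8 in Acis cells (19.2-fold lower), and ZNF521, ZNF737 and ZNF85 kept 2, 1 and 1 reads over the Acis libraries. ZNF704 (4.07-fold) and ZNF703 (6.51-fold) were the clearest of the higher members by test. Replication-dependent histones had 0 higher and 4 lower of 55. Near-identical sequences within both families make the values of some members uncertain.

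Part of the lower calls lay together along the genome. Chromosome 13 had a median log2 fold change of -0.73 over 270 tested genes, with 84 (31.1%) lower, 10 higher and 85.9% of genes below 0. The other chromosomes had medians between -0.05 and 0.19, the highest on chromosome 8, where 67 of 557 tested genes were higher (12%) and 68 lower. BRCA2 and RB1, both on chromosome 13, had the values given above (-0.90 and -0.99), near the median of their chromosome. Of 265 windows of 10 Mb with at least 20 tested genes, the lowest median was at 30 to 40 Mb on chromosome 13 (-1.22, 19 of 32 genes lower). It was followed by 20 to 30 Mb on chromosome 19 (-1.17, 27 of 46 lower), which holds a cluster of zinc finger genes including ZNF737, ZNF85, ZNF626 and ZNF681. The next were 90 to 100 Mb on chromosome 13 (-1.11, 17 of 30 lower) and the windows from 80 to 120 Mb on chromosome 1 (-0.84 to -1.04). The highest median was at 80 to 90 Mb on chromosome 8 (0.65, 13 of 31 genes higher), which holds MMP16 and ZNF704. DNA copy number was not analysed here, so its part in these shifts was not tested.

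**Figure D5:**
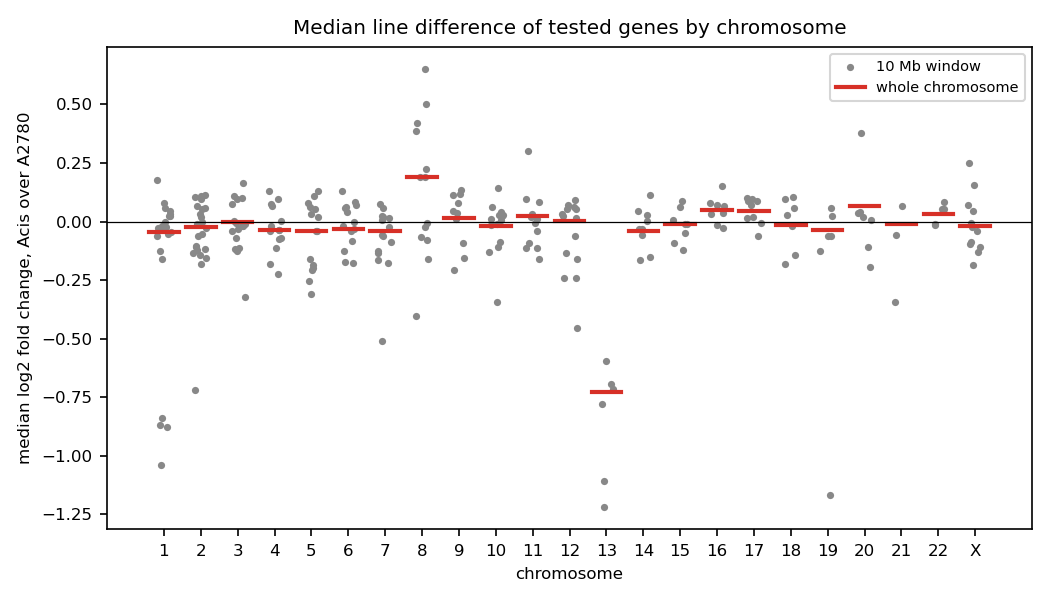
Median log2 fold change of Acis over A2780 control cells for each chromosome (red lines) and for each 10 Mb window with at least 20 tested genes (grey points). Chromosome 13 stands at -0.73 and chromosome 8 at 0.19, and windows under -0.5 are also found on chromosomes 1, 2, 7 and 19.

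The line difference was looked at again in the 6 libraries that had received cisplatin. Its group means share no library with the untreated means. Both contrasts come from the same fit, with a shared filter, scaling and spread, so this second look is not independent. Of the 1101 genes called higher without treatment, 1082 had the same direction and 910 (82.7%) were called higher again. Of the 1917 called lower, 1904 had the same direction and 1559 (81.3%) were called again. Of all 15760 tested genes, 1148 were called higher and 1883 lower after cisplatin. The interaction test, of whether the line difference itself differs with cisplatin, passed an adjusted p-value of 0.05 for 18.9% of tested genes, among them 137 of the higher and 190 of the lower calls. The opposite call was found for 2 genes with few reads. The 20 genes of the largest changes were all called in the same direction after cisplatin. ANKH alone among them passed the interaction test (adjusted p-value 0.0013), with a fitted log2 fold change of 10.43 without and 5.17 with cisplatin.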

How the data were processed

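The labels and the study's methods describe ribosomal RNA-depleted, strand-specific RNA-seq of human A2780 and A2780cis cells, 3 libraries for each line with and without cisplatin. According to the submitters' processing notes reads were aligned to hg38 with STAR 2.7.3, duplicates were removed with Picard, and reads per gene were counted with HTSeq 0.11.1. The deposited RNA-seq values are these raw counts, with no normalization by the authors. Duplicate removal on single-end reads limits how high a short or abundant gene can count, and the highest count in the control libraries was 5410. The deposited ATAC-seq peak lists were called by the authors with MACS2 on hg38, with fold enrichment as a ratio over background and q-values as −log10, as 1 list for each condition. The authors' own comparisons were not used.

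All 12 RNA-seq libraries were fitted in a model of the 4 groups with edgeR 4.0.16 (R 4.3.3; TMM scaling, default low-count filter, quasi-likelihood test, Benjamini-Hochberg adjustment over 15760 genes), with Acis control minus A2780 control as the contrast. Standard errors (SE) were taken from the fold change and the F statistic. The script was tested on simulated counts with known changes. A fold against 0 reads was set to a floor of 3 reads over the group, and counting intervals are exact at 95% and cover counting error only. Gene positions and lengths came from GENCODE 44, where 23513 of the 23622 identifiers matched, and RPKM levels were computed from the counts and summed exon lengths. A peak was assigned to a gene when it overlapped the 500 bases on either side of its start. All pairs of A2780 libraries were alike in differing by less than the counting noise, so none was counted as a repeat of another. Named genes were the 10 largest rises and falls among called genes with an approved symbol, libraries of the lines not overlapping and at least 100 normalized read counts on average in the higher line, then up to 5 called members of each list with the smallest adjusted p-value, and members whose role the text needs. Some genes that met this rule are not reported here. Gene lists, families and members were chosen with earlier results of these data known. Alternatives were DESeq2 1.42.0 and its size factors, total counts as library size, no filter and a mean of at least 50 counts, the 6 control libraries alone, a replicate block, protein-coding genes alone, each library left out, a start window of 1000 bases and the 20000 strongest peaks, and, chosen after seeing the data, the closest replicates of each group merged.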

Additional observations from a re-analysis of the deposited data

Results flagged for a closer look

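For 59 of 280 genes named in the report (21.1%, against 18.9% of all tested genes) the difference between the lines after cisplatin differed from that without it, by edgeR's interaction term at an adjusted p-value under 0.05 over all genes tested. Each value below is the log2 difference of Acis minus A2780 cells after cisplatin, less the same difference without cisplatin. It was negative for the immediate early and stress genes JUN (-2.56), EGR2 (-1.78), FOS (-1.62), EGR1 (-1.57), ARC (-1.37), EGR3 (-1.18), ATF3 (-1.17) and DDIT3 (-0.73). For JUN the Acis excess of 2.52 without cisplatin became -0.04 after it, and for FOS a difference of 0.00 became -1.62. It was also negative for the regulators SNAI1 (-1.99), FOXA3 (-1.67), TBR1 (-1.65), GATA2 (-0.65), HES1 (-0.44) and ATF4 (-0.21), and for PLK2 (-1.62), MYLIP (-1.76), FABP5 (-1.01), RHOV (-0.75), OSGIN1 (-0.73), PMAIP1 (-0.71), ISG15 (-0.43), ERCC1 (-0.43), ALDOC (-0.42), GSTP1 (-0.21) and KEAP1 (-0.20).

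The value was positive for the DNA damage and cell cycle genes BRCA2 (0.77), ATR (0.54), ATM (0.49), REV3L (0.48), MRE11 (0.42), RB1 (0.39), MDM2 (0.37) and BRCA1 (0.29). Among matrix and adhesion genes it was positive for MMP16 (1.16), PCDH9 (0.85), COL12A1 (0.73), COL11A1 (0.67), ITGA6 (0.63), SEMA3C (0.63), PCDH10 (0.20), COL5A2 (0.18) and COL3A1 (0.13). Transporters and enzymes with a positive value were ATP7A (0.56), CYP1B1 (0.55), SLC7A2 (0.50), ERAP2 (0.50), SLC7A11 (0.48), ERAP1 (0.43), SLC31A1 (0.28) and STARD4 (0.28). The remaining positive values were those of ZNF681 (0.98), FZD3 (0.80), ZNF704 (0.60), ACVR2B (0.54), BCL2 (0.49) and SMAD4 (0.41). The values of ANKH (-5.27), TGFB2 (2.67) and CPT1B (2.18) were fitted with few or no reads in a line and are no bound on a fold.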

How the results depend on the processing

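The count of genes higher in Acis control than A2780 control (1101) was 1450 with no filter on low counts, 528 with a mean of at least 50 counts, 1015 with only the 6 control libraries, 1254 with DESeq2, 889 among protein-coding genes and 4447 at the adjusted p-value alone. The count of genes lower in Acis control than A2780 control (1917) was 2942, 770, 1638, 2349, 1387 and 4829 under the same settings, and fewer or more genes enter the test under the filters by construction. Of the higher calls 1058 and of the lower 1832 were also called by DESeq2. With a library left out the counts were 1109 to 1150 and 1962 to 2069, and with the closest replicates merged they were 1135 and 1901. The replicate numbers did not pair the lines (correlations of same-numbered libraries 0.091, 0.053 and 0.071), and the fit with a replicate block gave 1101 and 1917 calls, of which 1101 and 1915 were the same genes. No named gene reversed its direction. Calls at the fold threshold (HRK, IRS1, MRE11 and RB1) and at low counts (ABCC2 and POLD4) changed with the library left out, as did those of GCLM and HMOX1. The calls of MRE11, RB1 and HRK also changed with other settings, and did so in 7, 8 and 6 settings in all. Genes under the filter on low counts, such as FN1 (10 reads in A2780 and 0 in Acis cells), were tested only with no filter and with DESeq2, and with no filter 13 epithelial and mesenchymal genes were lower, against 8.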

Other observations

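Some families without a place in the groups above were also counted. Of 41 tested tripartite motif (TRIM) genes, many of them ubiquitin ligases, 4 were higher and 10 lower in Acis cells. Of 16 KLF and SP transcription factors 2 were higher and 1 lower, and of 12 cytochromes P450 2 were higher and 2 lower. These counts have no test of the family, beside 6.99% higher and 12.2% lower of all tested genes.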
